A study of Homo sapiens with 4 samples.

Results

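The genes described here are the secreted Wnt ligands, their Frizzled and LRP receptors, the secreted Dickkopf (DKK) and SFRP antagonists, the scaffold and feedback proteins AXIN1, AXIN2, NKD1, NKD2, RNF43 and ZNRF3, and the nuclear effectors CTNNB1, LEF1, TCF7L1 and TCF7L2. They were chosen by gene symbol alone, among probe sets whose annotation names exactly 1 gene, and comprised 90 of 41920 probe sets, or 46 of 18304 genes. WNT3, WNT3A, FZD8 and TCF7, which the same symbol patterns cover, were not analysed here as single-gene probe sets. The values came from 4 single-colour arrays of U87, an established human glioma line, all of cells with a knockdown of QK (QKI), which encodes an RNA-binding protein. Of these, 2 arrays were of cells that had also been transduced with miR-20a and 2 of cells transduced with miR-NT, a scrambled microRNA without a target. Cells with an intact QK level were not analysed here, so every difference below is between 2 kinds of QK-depleted cells of a single line.

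Wnt proteins are lipid-modified secreted ligands that bind Frizzled receptors on the cell surface. In the canonical branch, Frizzled and an LRP co-receptor together switch off the AXIN-based complex that destroys beta-catenin, and beta-catenin then enters the nucleus and drives transcription with LEF and TCF factors. Other Wnt proteins, WNT5A the best studied among them, act largely without beta-catenin and are known in glioma for effects on cell movement. DKK1 blocks the LRP co-receptor, and SFRP proteins bind Wnt ligands outside the cell. AXIN2, NKD1, RNF43 and ZNRF3 are induced by the pathway and restrain it.

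A microRNA recognises transcripts mainly through its seed, bases 2 to 8. The reference sequence of miR-20a-5p is shown because the labels name miR-20a as the treatment, beside relatives of the same seed. The labels do not name the arm of the hairpin, and the 5p arm is the one that carries the family's seed. In RefSeq (GRCh38.p14), 8 human mature microRNAs share this seed, in capitals below, and miR-20a-5p lies at chr13:91351072-91351094 on the plus strand, in the cluster that also holds miR-17-5p.
hsa-miR-20a-5p: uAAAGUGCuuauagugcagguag
hsa-miR-17-5p: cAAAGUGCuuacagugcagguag
hsa-miR-93-5p: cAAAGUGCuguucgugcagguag
hsa-miR-106b-5p: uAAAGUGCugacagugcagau

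Levels are given per probe set on the deposited log2 scale, so a difference of 1 is a doubling. They carry no detection calls, so it cannot be read from them whether a transcript was present, and levels of different probe sets have no common scale. The median log2 level was 6.97 on both miR-20a arrays and 7.01 and 7.00 on the miR-NT arrays. QKI itself, by its probe set of highest mean level, was at 9.53 and 9.38 in miR-20a cells, against 9.18 and 9.38 in miR-NT cells. These ranges touched. Of its 10 probe sets, 4 had a higher mean in miR-20a cells, so the direction for QKI is not settled. Of 10 glial and glioma markers, 3 were on average higher and 7 lower in miR-20a cells, and 1 fell past the adjusted threshold. Of all genes, 53% were on average lower and 0.0601% fell past it. The marker that fell was CHI3L1, a secreted glycoprotein of mesenchymal glioma. It was at 12.44 and 12.32 in miR-20a cells, against 13.49 and 13.51 in miR-NT cells (limma adjusted p = 0.011). VIM was at 14.68 and 14.63 in miR-20a cells and 14.70 and 14.66 in miR-NT cells. GFAP was at 6.94 and 7.33 in miR-20a cells and 6.94 and 7.29 in miR-NT cells. The groups did not overlap for 1 glial and glioma marker that was higher and 6 that were lower, beside 25.5% and 27% of all genes. Among these 6 were NES, SOX2, SOX9, FABP7 and OLIG2, with log2 changes between -0.44 and -0.21. The mean log2 level of all 10 markers was 8.64 and 8.59 in miR-20a cells and 8.86 and 8.82 in miR-NT cells. The mean log2 level of 5 epithelial markers was 6.25 and 6.28 in miR-20a cells and 6.34 and 6.28 in miR-NT cells. That of 4 blood markers was 7.28 and 7.49 against 7.50 and 7.44, and that of 5 endothelial markers 6.92 and 6.97 against 7.07 and 7.05. A sign of RNA quality, the level of the 3′ ACTB control probe set less that of the 5′ one, was 0.49 ± 0.042 log2 units on miR-20a arrays and 0.27 ± 0.11 on miR-NT arrays (SD, n = 2 each). It moved with every difference below, and its part in them was not tested. In such bulk RNA, a change in the share of cells that express a gene and a change of RNA per cell cannot be told apart.

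The comparison shows how far the level of each Wnt gene differed between QK-depleted cells with miR-20a and those with miR-NT. None of the 46 Wnt pathway genes passed the test (0 of 46 at a Benjamini-Hochberg adjusted p under 0.05 over all 18304 genes, limma), where 0.426% of all genes passed. At an unadjusted p under 0.05, 4 members were higher and 5 lower in miR-20a cells (limma), where 12.6% of all genes were higher and 9.24% lower. That is 19.6% of the members, beside a background of 21.8% of all genes. Means were higher in miR-20a cells for 16 members and lower for 30, where 47% of all genes were higher and 53% lower, and the median log2 change was -0.069, against -0.013 over all genes. The groups did not overlap for 8 members that were higher and 16 that were lower in miR-20a cells, 52.2% of the members, beside 52.5% of all genes. The shares of 19.6% and 52.2%, which join both directions, lay close to those of the whole array. Of all genes, 25.5% were higher and 27% lower without overlap. By direction, the members thus leaned further to the lower side than all genes did, and this lean was not tested.

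The intervals show how large a change these arrays leave room for. The 95% intervals of the log2 change, which are not adjusted for the number of genes, lay within a doubling or halving for all 46 members, as they did for 99.5% of all genes. For 36 of the 46 they lay within 0.5 log2 units, or 1.41-fold, either way, as they did for 79.5% of all genes. Each gene was counted by its probe set of highest mean level. The width on either side of the estimate had a median of 0.24 log2 units and ranged between 0.20 and 0.37. The members with the largest differences were the SFRP4 antagonist and the FZD7 receptor on the higher side and the ligand WNT2 on the lower side.

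**Figure D1:**
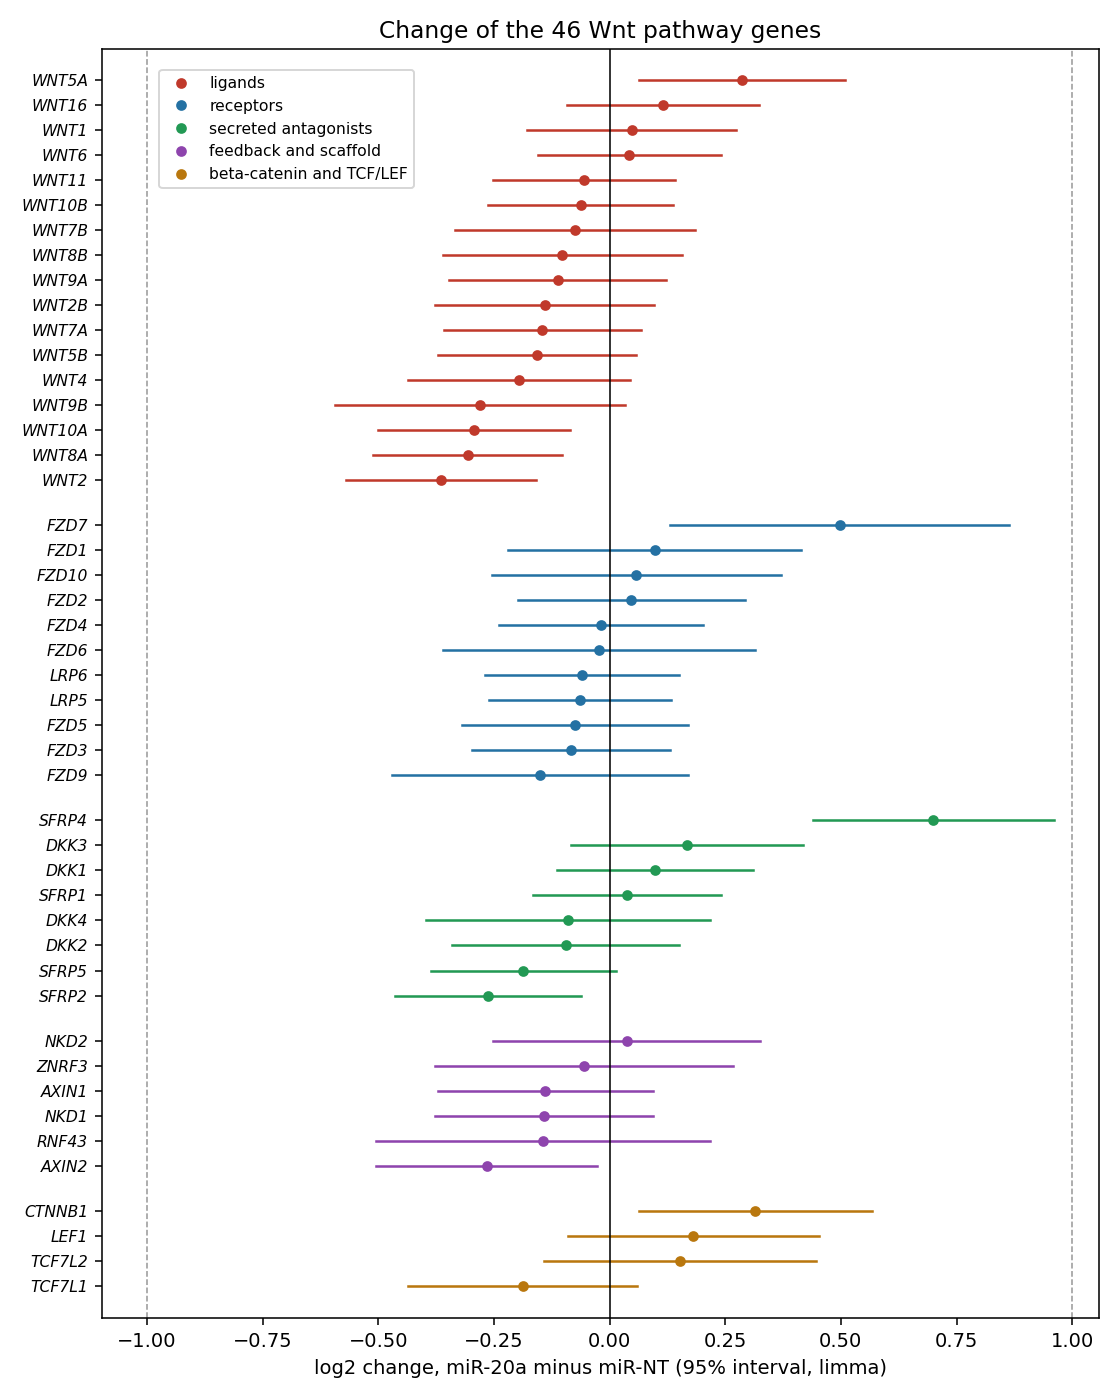
Log2 change (miR-20a minus miR-NT, x axis) of the 46 genes (rows), each by its probe set of highest mean level, ordered by size within each role; points are estimates and lines 95% limma intervals, with dashed lines at a doubling and a halving. SFRP4 at 0.70 and FZD7 at 0.50 stand to the right and WNT2 at -0.36 to the left, and no interval crosses a dashed line.

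Of the 17 ligands, 4 were on average higher and 13 lower in miR-20a cells, with a median log2 change of -0.11 and 0 past the adjusted threshold (limma). At an unadjusted p under 0.05, 1 was higher and 3 lower, where 12.6% of all genes were higher and 9.24% lower. The groups did not overlap for 3 ligands that were higher and 9 that were lower, beside 25.5% and 27% of all genes. WNT2 is a ligand of lung and vessel development and can act through beta-catenin. Its log2 levels were 7.06 and 7.01 in miR-20a cells, against 7.36 and 7.44 in miR-NT cells. Both miR-20a arrays were below both miR-NT arrays, and the log2 change was -0.36 ± 0.086 (SE, 95% interval -0.57 to -0.16, limma adjusted p = 0.096). WNT8A, an early embryonic ligand, was at 5.66 and 5.73 in miR-20a cells, against 6.03 and 5.98 in miR-NT cells, a log2 change of -0.31 ± 0.086 (limma adjusted p = 0.12). WNT10A, a ligand of skin and tooth development, was at 6.29 on both miR-20a arrays, against 6.53 and 6.64 on the miR-NT arrays, a log2 change of -0.29 ± 0.087 (limma adjusted p = 0.13). For WNT8A and WNT10A, too, the miR-20a arrays lay below both miR-NT arrays.

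WNT5A, the non-canonical ligand, went the other way. By the probe set that stands for the gene its log2 level was 11.24 and 11.13 in miR-20a cells, against 10.83 and 10.96 in miR-NT cells, a log2 change of 0.29 ± 0.093 (SE, 95% interval 0.064 to 0.51, limma adjusted p = 0.15). The other WNT5A probe set gave 9.60 and 9.48 in miR-20a cells, against 9.00 and 9.19 in miR-NT cells, a log2 change of 0.45 ± 0.11 (limma adjusted p = 0.15 over all probe sets). Both probe sets thus had the miR-20a arrays above both miR-NT arrays. The change of WNT5A was 0.12 after quantile normalization (limma adjusted p = 0.50) and 0.15 after cyclic loess (limma adjusted p = 0.41). Its close relative WNT5B had the opposite sign on all 3 probe sets, with log2 changes of -0.16, -0.44 and -0.32. On the probe set at -0.44, the largest of these changes, the miR-20a arrays were at 6.68 and 6.71. The miR-NT arrays were at 7.23 and 7.04 on it (limma adjusted p = 0.14 over all probe sets). The miR-20a arrays were below both miR-NT arrays on each of the 3 WNT5B probe sets.

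The remaining 12 ligands had log2 changes between -0.28 for WNT9B and 0.11 for WNT16. All ligands at an unadjusted p under 0.05 (limma) are described above, so that 0 of these 12 reached it follows from that choice. WNT9B, a ligand of kidney and facial development, was at 6.44 and 6.07 in miR-20a cells, against 6.56 and 6.51 in miR-NT cells, and the difference came mostly from miR-20a replicate 2. WNT4, a ligand of kidney and gonad development, had a change of -0.20. Another WNT4 probe set ran the other way, at 6.85 and 7.02 in miR-20a cells, against 6.70 and 6.77 in miR-NT cells, a log2 change of 0.20 with no overlap, so the direction for WNT4 is not settled. WNT7A, a ligand of limb patterning, had a change of -0.15. WNT1, the founding member of the family, had a change of 0.048, and WNT6 one of 0.043. In RefSeq gene order WNT10B lies next to WNT1 and WNT6 next to WNT10A. The neighbours did not share a sign, with log2 changes of -0.063 for WNT10B and 0.048 for WNT1, and of 0.043 for WNT6 and -0.29 for WNT10A.

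**Figure D2:**
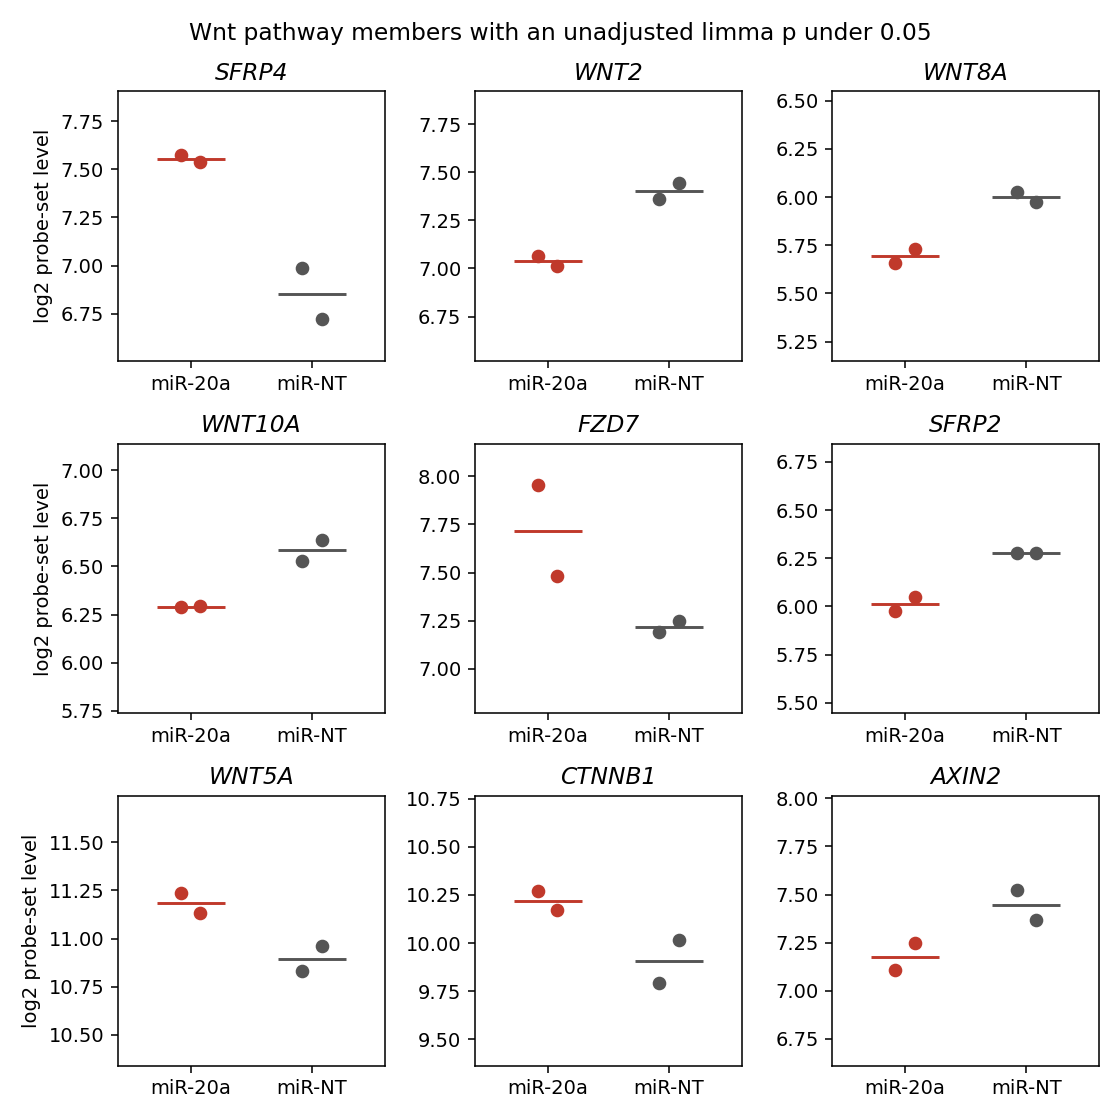
Log2 probe-set level (y axis, 1.4 units high in every panel) by group for the 9 genes at an unadjusted limma p under 0.05, with 1 point per array and a bar at the mean of 2 arrays. In each panel the miR-20a arrays lie wholly above or wholly below the miR-NT arrays, and the FZD7 points of the miR-20a arrays, 7.95 and 7.48, lie furthest apart.

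Of the 11 receptor genes, 4 were on average higher and 7 lower in miR-20a cells, the median log2 change was -0.022, and 0 passed the adjusted threshold (limma). FZD7, a Frizzled receptor studied in tumour cells and stem cells, was the exception in size. Its log2 level was 7.95 and 7.48 in miR-20a cells, against 7.19 and 7.25 in miR-NT cells, a log2 change of 0.50 ± 0.15 (SE, 95% interval 0.13 to 0.86, limma adjusted p = 0.14). The miR-20a arrays were both higher, with an SD of 0.34 log2 units between them, against 0.041 between the miR-NT arrays. Without miR-20a replicate 1 the log2 change was 0.26 (limma adjusted p = 0.26), and without miR-20a replicate 2 it was 0.73 (limma adjusted p = 0.033, in a fit where 1.11% of all genes passed). The other FZD7 probe set gave 7.13 and 6.98 in miR-20a cells, against 6.81 and 6.60 in miR-NT cells, again with no overlap and a log2 change of 0.35.

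FZD1, another Frizzled receptor, depended on the probe set. The probe set that stands for the gene was at 8.89 and 8.51 in miR-20a cells, against 8.62 and 8.58 in miR-NT cells, and the groups overlapped. The other FZD1 probe set was at 7.32 and 7.05 in miR-20a cells, against 7.84 and 7.59 in miR-NT cells, a log2 change of -0.53 ± 0.13 (SE, limma adjusted p = 0.15 over all probe sets). The gap between both estimates, 0.62 log2 units, was the widest of any member gene, and the data do not settle the direction for FZD1. FZD2, FZD4, FZD5, FZD6, FZD9 and FZD10, the other Frizzled receptors besides FZD3, had log2 changes of 0.047, -0.019, -0.075, -0.022, -0.15 and 0.058. By the probe sets that stand for these genes, the groups overlapped. The other FZD4 probe set had a log2 change of -0.20 and the other FZD5 probe set one of 0.11, both with no overlap. FZD3, a receptor of axon guidance, had a change of -0.083.

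Neither LRP co-receptor passed the test. LRP6, the main canonical co-receptor, was at 8.29 and 8.39 in miR-20a cells, against 8.43 and 8.36 in miR-NT cells, with overlapping groups and a log2 change of -0.059 ± 0.088 (SE, 95% interval -0.27 to 0.15, limma adjusted p = 0.75). Its other probe sets had log2 changes of -0.18 and -0.15, and on the second of these the miR-20a arrays lay below both miR-NT arrays. LRP5, a co-receptor known from the control of bone mass, was at 7.34 and 7.31 in miR-20a cells, against 7.40 and 7.38 in miR-NT cells, a log2 change of -0.064. Its other probe set was at 4.79 and 4.60 in miR-20a cells, against 5.05 and 4.82 in miR-NT cells, a log2 change of -0.23 with no overlap (limma adjusted p = 0.35 over all probe sets).

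The secreted antagonists held the largest difference of all 46 genes. SFRP4, which binds Wnt ligands through a Frizzled-like domain, had log2 levels of 7.57 and 7.54 in miR-20a cells, against 6.99 and 6.72 in miR-NT cells. The groups did not overlap, the difference was 1.62-fold, and the log2 change was 0.70 ± 0.11 (SE, 95% interval 0.44 to 0.96, limma adjusted p = 0.063). SFRP4 passed the threshold after quantile normalization, median centring or cyclic loess (limma adjusted p between 0.045 and 0.048), where 0.606%, 0.743% and 0.486% of all genes passed. It also passed with the genes whose mean level lay under the 40th percentile left out (limma adjusted p = 0.017), where 11.3% of the genes passed, and with a variance trend and a robust fit (0.018), where 6.62% did. WNT2 passed only without those low genes or at a threshold of 0.10, which 4.94% of all genes met. Without any single array the adjusted p of SFRP4 lay between 0.052 and 0.30 (limma), although the log2 change stayed between 0.57 and 0.83. The other SFRP4 probe set had the same sign and a smaller log2 change of 0.17, and the mean of both gave 0.44 (limma adjusted p = 0.073).

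SFRP2, a related antagonist, was lower, at 5.98 and 6.05 in miR-20a cells, against 6.28 on both miR-NT arrays, a log2 change of -0.26 ± 0.084 (SE, limma adjusted p = 0.15), or -0.15 with the mean of both probe sets. SFRP5 was at 7.20 and 7.26 in miR-20a cells, against 7.42 and 7.41 in miR-NT cells, a log2 change of -0.19. Both genes thus had the sign opposite to that of SFRP4, and their groups did not overlap. SFRP1, a further member of the family, had a change of 0.038 by the probe set that stands for it, and its 4 probe sets ran between -0.37 and 0.074. DKK1, the LRP-blocking antagonist and a known transcriptional target of beta-catenin, was at 10.33 and 10.23 in miR-20a cells, against 10.14 and 10.22 in miR-NT cells. Those groups were separated by 0.011 log2 units, and the change of 0.098 ± 0.089 (SE, limma adjusted p = 0.57) turned to -0.025 after quantile normalization and -0.026 after cyclic loess. DKK3, a divergent family member often silenced in tumours, had a change of 0.17, and 3 of its 5 probe sets had a higher mean. It was 0.049 without miR-20a replicate 1 and 0.0022 with the mean of all probe sets. DKK2 had one of -0.095 and DKK4 one of -0.090. In all, 4 of the 8 antagonists were on average higher and 4 lower, with a median log2 change of -0.026.

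The stretch before the start site is given for WNT2 and SFRP4, the members with the largest lower and higher difference, and for DKK1, the beta-catenin target, as the 250 bases before the start in RefSeq (GRCh38.p14). Capitals mark the TCF/LEF core, which was searched as CTTTGAT or as CTTTGAA, with CTTTGTT and with CTTTGTA as further forms, on both strands and with overlapping matches allowed.
WNT2 (chr7:117323059-117323308, minus strand): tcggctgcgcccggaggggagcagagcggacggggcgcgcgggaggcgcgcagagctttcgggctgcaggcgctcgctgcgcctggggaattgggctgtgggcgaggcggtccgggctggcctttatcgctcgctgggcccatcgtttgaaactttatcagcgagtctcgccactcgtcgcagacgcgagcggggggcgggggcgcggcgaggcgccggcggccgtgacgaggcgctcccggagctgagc
SFRP4 (chr7:37916818-37917067, minus strand): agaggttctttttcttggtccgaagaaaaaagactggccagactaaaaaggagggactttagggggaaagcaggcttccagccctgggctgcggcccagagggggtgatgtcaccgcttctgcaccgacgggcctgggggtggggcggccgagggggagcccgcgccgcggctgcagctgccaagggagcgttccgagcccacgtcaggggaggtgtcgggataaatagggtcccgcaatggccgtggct
DKK1 (chr10:52314031-52314280, plus strand): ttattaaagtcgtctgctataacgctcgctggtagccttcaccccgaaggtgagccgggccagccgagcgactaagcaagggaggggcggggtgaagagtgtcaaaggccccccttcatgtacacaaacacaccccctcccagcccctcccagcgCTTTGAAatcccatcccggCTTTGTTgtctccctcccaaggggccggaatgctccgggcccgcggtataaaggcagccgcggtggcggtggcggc
The WNT2 and SFRP4 windows held no such letters, while the DKK1 window held CTTTGAA starting 95 bases and CTTTGTT starting 76 bases before the start. Of 36 windows found for 30 of the members, 2 held a match (5.56%), beside 12% of all 35116 windows in the table. The other member window with a match belonged to TCF7L2. The windows of the members held a median of 21 CpG dinucleotides, against 11 in all windows, and the WNT2 window with 38 held more than the SFRP4 window with 17. A match is a description of these letters and was not tested for binding.

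The feedback and scaffold genes did not pass the test. Of 6 genes, 5 were on average lower and 1 higher in miR-20a cells, where 53% of all genes were lower, with a median log2 change of -0.14 and 0 past the adjusted threshold (limma). AXIN2, the most widely used transcriptional readout of canonical Wnt activity, was at 7.11 and 7.25 in miR-20a cells, against 7.52 and 7.37 in miR-NT cells. Both miR-20a arrays lay below both miR-NT arrays, with a log2 change of -0.27 ± 0.10 (SE, 95% interval -0.50 to -0.028, limma adjusted p = 0.19). It had 4 probe sets, of which 3 had a lower mean and the other was at 0.00030, and the mean of all 4 gave -0.12. AXIN1, the constitutive scaffold of the destruction complex, was at 8.64 and 8.83 in miR-20a cells, against 8.91 and 8.84 in miR-NT cells, a log2 change of -0.14. NKD1, which binds Dishevelled, was at 8.20 on both miR-20a arrays, against 8.24 and 8.44 on the miR-NT arrays, a log2 change of -0.14. Its other probe set also had a lower mean. Single arrays moved both values: AXIN1 was at -0.049 with miR-20a replicate 1 left out and at -0.23 with miR-20a replicate 2 left out, and NKD1 at -0.041 without miR-NT replicate 2 and -0.24 without miR-NT replicate 1. The ubiquitin ligases that remove Frizzled from the surface had overlapping groups. RNF43 was at 7.13 and 7.59 in miR-20a cells, against 7.46 and 7.54 in miR-NT cells, and its change of -0.14 turned to 0.085 without miR-20a replicate 1. ZNRF3 was at 6.01 and 5.76 in miR-20a cells, against 6.09 and 5.78 in miR-NT cells. NKD2 had a log2 change of 0.037.

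Among the nuclear effectors, 3 of 4 had a higher mean in miR-20a cells and 0 passed the adjusted threshold (limma). CTNNB1, which encodes beta-catenin, was at 10.27 and 10.17 in miR-20a cells, against 9.79 and 10.02 in miR-NT cells. The groups did not overlap, with a log2 change of 0.32 ± 0.11 (SE, 95% interval 0.064 to 0.57, limma adjusted p = 0.16). The gene has 3 probe sets, and those that do not stand for it had log2 changes of -0.12 and -0.11. On these the mean log2 levels were 5.45 and 4.66 in miR-20a cells, against 5.57 and 4.77 in miR-NT cells, with overlapping groups. The change of CTNNB1 was 0.030 with the mean of all probe sets, 0.19 after quantile normalization, 0.20 after cyclic loess and 0.20 without miR-NT replicate 1 (limma adjusted p between 0.34 and 0.91). LEF1, a DNA-binding partner of beta-catenin, was at 8.19 and 7.94 in miR-20a cells, against 7.95 and 7.81 in miR-NT cells, and the groups overlapped. Another LEF1 probe set ran the other way, at 6.71 and 6.66 in miR-20a cells, against 6.93 and 6.94 in miR-NT cells, a log2 change of -0.25. TCF7L1, a mostly repressive TCF factor, was at 6.61 and 6.75 in miR-20a cells, against 6.77 and 6.96 in miR-NT cells, a log2 change of -0.19, or -0.094 without miR-NT replicate 2.

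TCF7L2, the TCF factor measured by the most probe sets, was split, with 3 of 7 probe sets higher and 4 lower in miR-20a cells. Its log2 changes ran between -0.11 and 0.28. The probe set that stands for it was at 8.23 and 7.91 in miR-20a cells, against 7.86 and 7.97 in miR-NT cells, and the groups overlapped. The probe set at 0.28 had 6.36 and 6.25 in miR-20a cells, against 5.99 and 6.06 in miR-NT cells, with no overlap (limma adjusted p = 0.21 over all probe sets). The window before an internal start of TCF7L2, shown because it is the other member window with a TCF/LEF core, reads as follows, with the core in capitals.
TCF7L2 (chr10:113126383-113126632, plus strand): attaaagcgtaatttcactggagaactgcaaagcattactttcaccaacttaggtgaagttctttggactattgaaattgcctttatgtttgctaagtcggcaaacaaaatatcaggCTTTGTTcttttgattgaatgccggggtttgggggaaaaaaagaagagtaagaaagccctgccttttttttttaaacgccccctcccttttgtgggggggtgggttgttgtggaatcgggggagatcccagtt
The core CTTTGTT starts 133 bases before that start. Which start the probe sets report on was not tested.

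Over all 90 probe sets of the 46 genes, 0 passed the adjusted threshold (limma over 41920 probe sets), where 0.136% of all probe sets did, and the smallest adjusted p was 0.11, for SFRP4. With no adjustment, at a p under 0.05, 7 were higher and 10 lower in miR-20a cells, 18.9% beside 17.9% of all probe sets (9.46% higher and 8.4% lower). The groups did not overlap for 15 probe sets that were higher and 29 that were lower, 48.9%, where the share of all probe sets was also 48.9% (21.7% higher and 27.2% lower). In other settings 1 SFRP4 probe set passed, with low probe sets left out, where 1.33% passed, and with the trend and robust fit, where 2.28% did. Of the 24 genes with several probe sets, all probe sets of WNT5A, FZD7 and SFRP4 were higher, those of 8 genes were all lower, and 13 genes were mixed. The 8 genes were WNT5B, WNT10A, FZD4, LRP5, LRP6, DKK2, SFRP2 and NKD1. The highest and the lowest estimate of a gene differed by a median of 0.22 log2 units, about as much as the width of an interval on either side.

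**Figure D3:**
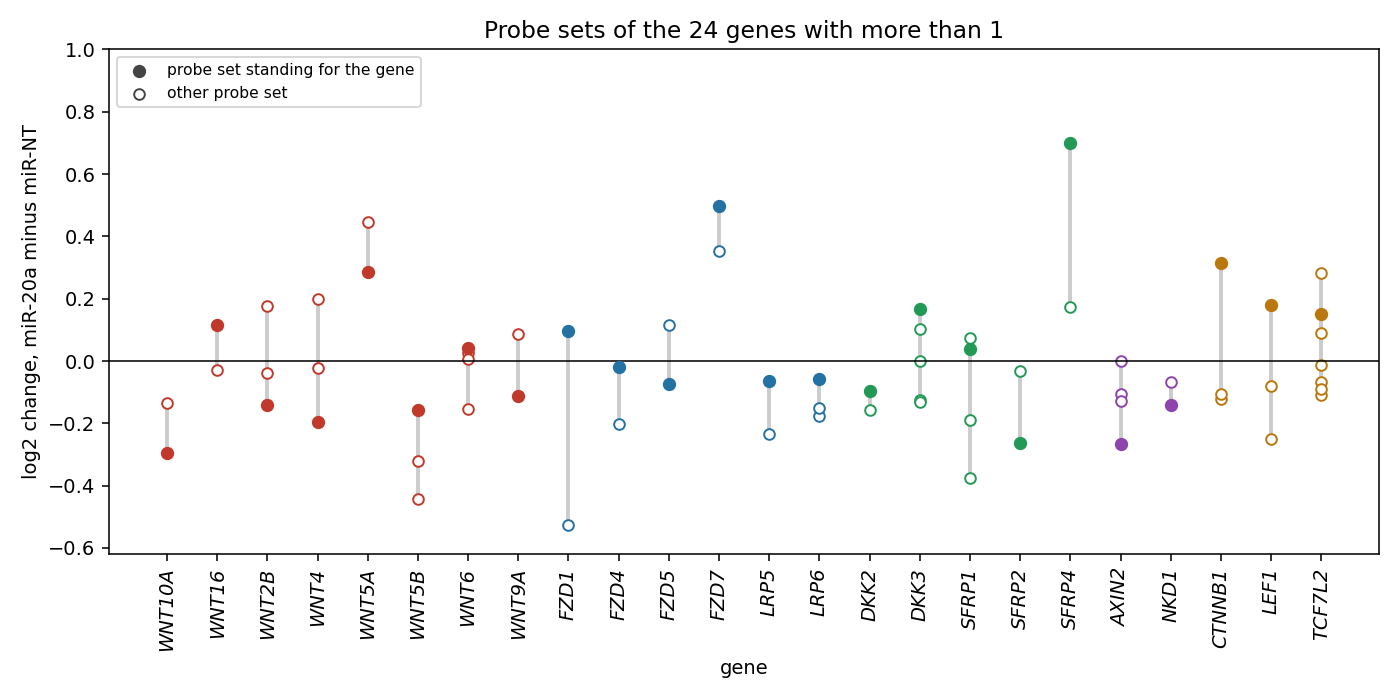
Log2 change (miR-20a minus miR-NT, y axis) of every probe set of the 24 genes with more than 1 (x axis); filled points stand for the gene, open points are its other probe sets, and the grey line spans them. WNT5A, FZD7 and SFRP4 lie wholly above 0, WNT5B wholly below, and FZD1 spans from 0.097 to -0.53.

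Other genes of the pathway were taken from 6 lists and differed by similar amounts, with a single gene apart. Of 101 measured genes in these lists that are not among the 46, 1 rose and 0 fell past the adjusted threshold (limma). Over all genes, 0.366% rose and 0.0601% fell past it. With no adjustment, at a p under 0.05, 4 were higher and 17 lower (limma). These are 3.96% and 16.8% of the 101, where 12.6% of all genes were higher and 9.24% lower. Together they are 20.8%, where 21.8% of all genes were. The groups did not overlap for 64.4% of the 101, beside 52.5% of all genes. The gene that rose was ID2, whose product blocks DNA binding by basic helix-loop-helix factors and which BMP signals also induce. It was listed as a reported Wnt target and had log2 levels of 10.32 and 10.37 in miR-20a cells, against 9.07 and 9.30 in miR-NT cells (log2 change 1.16 ± 0.10, SE, limma adjusted p = 0.017). Of the 24 measured reported targets, 9 were on average higher and 15 lower, with MYC at -0.34 and SOX9 at -0.44. The median log2 change of that list was -0.052. At an unadjusted p under 0.05, 2 of its genes were higher and 7 lower (limma), 37.5% of the list, beside 21.8% of all genes.

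Among 16 other secreted and secretion genes, 3 were on average higher and 13 lower. RSPO1, an R-spondin that amplifies Wnt signals, was at 5.65 and 5.51 in miR-20a cells, against 6.18 and 6.16 in miR-NT cells (log2 change -0.59 ± 0.091, SE, limma adjusted p = 0.061), and WLS, the carrier that exports Wnt ligands, had a change of -0.23. Among 9 other receptors, LGR4, a receptor of R-spondins, was at 7.52 and 7.17 in miR-20a cells, against 6.99 and 6.92 in miR-NT cells, a log2 change of 0.39 that 1 of its 3 probe sets showed. ROR2, a receptor of WNT5A, had a change of -0.27. Among 23 cytoplasmic genes, FRAT1, an inhibitor of the kinase GSK3, had a change of -0.47 (limma adjusted p = 0.082). CSNK1A1, the kinase that primes beta-catenin for destruction, had one of 0.36 (limma adjusted p = 0.094), and 11 of its 12 probe sets had a higher mean. Of 13 nuclear cofactors 4 were on average higher and 9 lower, with the beta-catenin cofactor BCL9 at -0.29. Of 17 non-canonical genes 6 were higher and 11 lower, and their changes lay between -0.21 and 0.16.

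**Figure D4:**
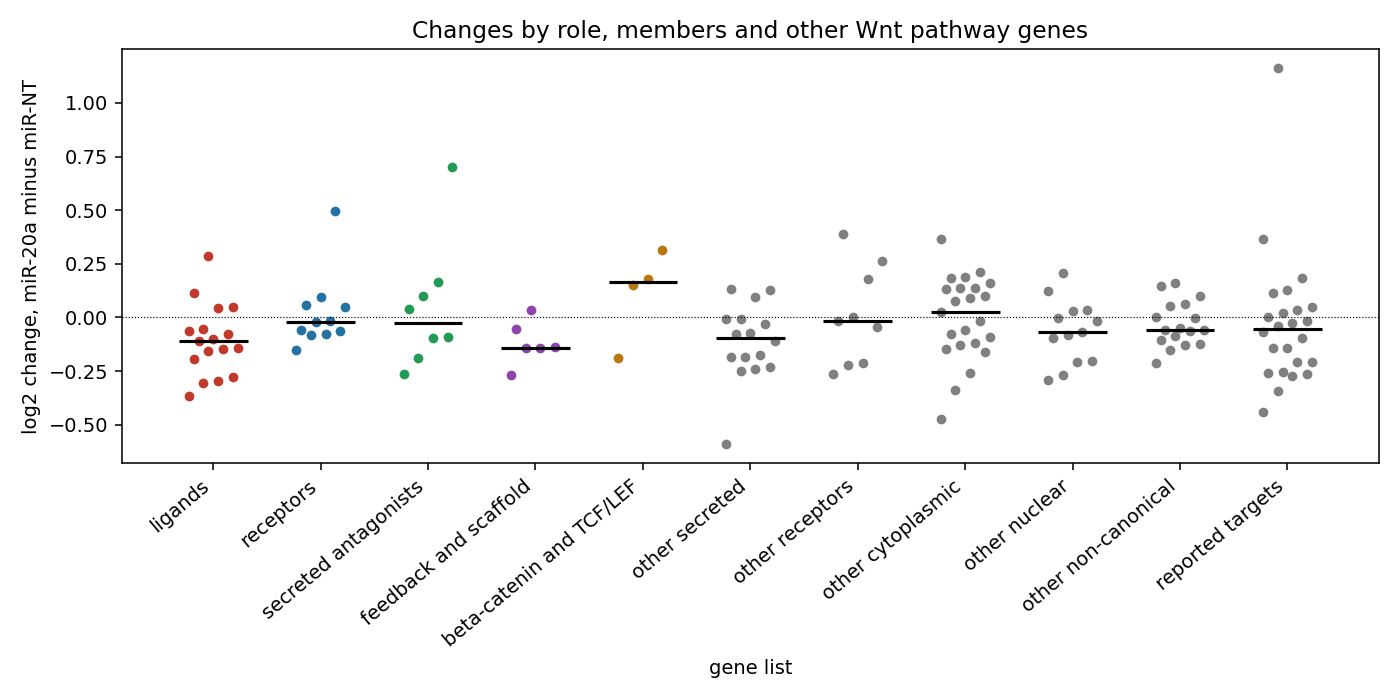
Log2 change (miR-20a minus miR-NT, y axis) of each measured gene (points) in the 5 roles of the 46 genes, in colour, and in 6 lists of other Wnt pathway genes, in grey (x axis); bars are medians, and horizontal spread within a list has no meaning. ID2 at 1.16 among the reported targets and SFRP4 at 0.70 among the antagonists stand apart from points that mostly lie within 0.5 of 0.

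The change also moved with the level. Over all genes, log2 changes tended to be higher at higher mean levels (Spearman rho = 0.29). This correlation is across genes, and genes are no independent replicates. The 19 members below the 40th percentile of mean level, with 4 higher in miR-20a cells, had a median log2 change of -0.095, beside -0.051 for all such genes. The 27 members above it, with 12 higher, had a median of -0.022, beside 0.021. Of the members lower at an unadjusted p under 0.05 (limma), WNT8A, WNT10A and SFRP2 lay below that percentile and WNT2 and AXIN2 above it. The part of the level in the members' changes was not tested.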

How the data were processed

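Each of 4 samples was read on 1 single-colour Affymetrix array, and the deposited table holds log2 probe-set levels made by the authors with the R package affy, per the submitters' processing notes. How the background was corrected and the probe sets summarized is not given in the sources used here, and the log base was taken from the range of the values. Nothing in the labels says that replicates were separate cultures, so the spread behind the p-values may be technical. With 4 arrays, their number limits the precision. Depth does not apply to arrays.

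Gene names came from GEO's platform annotation and were checked by Entrez identifier against RefSeq (GRCh38.p14), where 0 symbols changed. Of 41930 probe sets, 10 array controls were left out; 37465 named 1 gene, 1727 several and 2728 none. Each gene was represented by its probe set of highest average level. Differences were fitted with limma 3.58.1 in R 4.3.3 (intercept and group, eBayes, two-sided p, Benjamini-Hochberg over all genes or over all probe sets, threshold 0.05), with no filter and the deposited scaling. The fit was tested on simulated data. An exact permutation test of 2 arrays against 2 cannot go below a p of 0.333. Other scalings, a filter, a trend and robust fit, a replicate block, other ways of joining probe sets and leaving out each array were also run.

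The genes, the lists and the tests were chosen with earlier results of these data known. Values by array are given for the members with the smallest p or the highest level in each role, for 8 pathway genes whatever their value, and for probe sets singled out after their values were seen. Other lists name up to 3 genes with the smallest p. The lists were compiled from general knowledge. The older name SFRP3 was counted as FRZB, in the list of other secreted genes. Same-numbered samples did not deviate together (correlation of deviations -0.11 over all genes).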

Additional observations from a re-analysis of the deposited data

Results flagged for a closer look

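The ACTB control probe sets are not among the genes tested. Their mean 3′ minus 5′ difference was 0.486 log2 units on the miR-20a arrays, above the 0.272 of the miR-NT arrays. The corresponding GAPDH difference was 0.28 on the miR-20a arrays and 0.22 on the miR-NT arrays. With 2 arrays a group, an exact permutation test of either difference cannot give a p below 0.333.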

How the results depend on the processing

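No Wnt pathway gene passed under the replicate block, with the mean of all probe sets, with the probe set of largest SD, or without miR-20a replicate 1, miR-NT replicate 1 or miR-NT replicate 2 (limma, 0 genes). At an unadjusted p under 0.05 these settings gave 7, 8, 12, 6, 3 and 8 members, or 15.2%, 17.4%, 26.1%, 13%, 6.52% and 17.4%, where 17.9%, 19.7%, 20.3%, 18.6%, 10.5% and 15.5% of all genes passed it. The count was 1 after quantile normalization, median centring or cyclic loess and with a trend and robust fit, SFRP4 each time, and 2 with genes below the 40th percentile left out or with a threshold of 0.10 (SFRP4 and WNT2). Leaving out 1 array gave 0 to 1, the 1 being FZD7 without miR-20a replicate 2. Of the probe sets, 1 passed with low probe sets left out and 1 with the trend and robust fit, both of SFRP4. Over all genes 78 passed, against 136 with median centring (122 higher and 14 lower), 1239 with low genes left out, 1212 with the trend and robust fit, 904 at 0.10, and 0 to 203 without an array. Quantile normalization gave 73 higher and 38 lower and cyclic loess 62 higher and 27 lower, against 67 and 11 as deposited. Under the replicate block 0 genes passed (limma, 3272 at an unadjusted p under 0.05), and under a crossed pairing, added after seeing the data, also 0 (3843); the samples share only a number.

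The median log2 change of the members was -0.022 with low genes left out, over the 27 members that remained in that fit, and between -0.092 and -0.033 elsewhere. Of 319 comparisons of a named gene with an alternative, 295 kept direction and side of the threshold, 7 passed newly and 17 turned direction. WNT6 turned to -0.027 after quantile normalization, -0.010 after cyclic loess, -0.019 with the mean of probe sets and -0.15 with the probe set of largest SD. FZD1 turned to -0.21 and -0.53 under the last pair of settings and LEF1 to -0.050 and -0.079. FZD2 turned to -0.0013 and DKK1 to -0.025 after quantile normalization, and DKK1 to -0.026 after cyclic loess. With 1 array left out at a time, log2 changes of both signs were seen for FZD9 (-0.32 to 0.014), FZD1 (-0.093 to 0.29), FZD2 (-0.052 to 0.15), RNF43 (-0.37 to 0.085) and TCF7L2 (-0.0065 to 0.31). The causes were not tested.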

Other observations

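Probe sets that name a Wnt gene beside another gene stayed outside the comparisons. Of 3 that name WNT3, a canonical ligand, together with an uncharacterised locus, 1 was at 5.56 and 5.75 in miR-20a cells, against 5.97 and 6.04 in miR-NT cells, a log2 change of -0.35 ± 0.10 (SE, limma adjusted p = 0.18 over all probe sets). The other WNT3 probe sets had log2 changes of -0.0073 and 0.081 and overlapping groups. The 3 that name FZD8, a Frizzled receptor, together with a microRNA had changes of 0.022, -0.068 and -0.078, and their groups overlapped.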
